A study of Mus musculus with 2 samples.

Results

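Csf1 Il23a neutrophils are heart neutrophils in which messages of 2 secreted proteins, the macrophage growth factor CSF-1 (Csf1) and the IL-23 subunit encoded by Il23a, were read at least 2 times in the cell. They were 1031 of the 11145 cells kept from this series and 1031 of its 3987 neutrophils. A cell was kept with at least 200 genes and at most 20% of its unique molecular identifiers (UMIs, 1 per captured mRNA molecule) from mitochondrial genes. It was taken as a neutrophil when the 6 genes G0s2, Il1r2, Hdc, Mmp9, Csf3r and Cxcr2 made up at least 0.3% of its UMIs and it held at most 3 UMIs of the complement genes C1qa, C1qb and C1qc. Among neutrophils, members held fewer than 3 UMIs of Retnlg, fewer than 3 UMIs of Ifit1, Ifit3, Ifit3b and Rsad2 together, and at least 2 UMIs of Csf1 and Il23a, which were no fewer than those of Nt5e and Ppp1r3b. Members were thus chosen by measured UMIs of these genes, and their levels are given below as a description.

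The cells came from hearts of wild type C57BL/6J male mice aged 8 weeks that had undergone splenectomy or sham surgery. All hearts had a branch of the left coronary artery, the left anterior descending, closed for 60 min and then reopened for 24 h, so neither group is an uninjured heart. Leukocytes were collected on magnetic beads against CD45 and read with the Chromium 3′ v3 chemistry. Each group is 1 library, and how many mice each one pools is not stated in the labels. The library whose title carries SPX was taken as splenectomy and the other as sham surgery. With 1 library per group there is no test between groups, and all 95% intervals below are exact and cover counting error only. Fewer cells of a kind and less RNA per cell cannot be told apart in sums over cells.

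Neutrophils are short-lived granulocytes that enter reperfused heart muscle early, carry ready-made granule proteins, and also make chemokines and cytokines after arrival. CSF-1 acts through the receptor CSF1R on monocytes and macrophages and sustains their survival and maturation. IL-23 is a pair of the product of Il23a with that of Il12b and supports lymphocytes that make IL-17. Transcription of many of the genes described here, among them Tnf, Icam1 and Nfkbia, is known to be driven by NF-kB, a family of factors that inflammatory signals release into the nucleus.

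The sham library held 601 members among 2365 neutrophils and the splenectomy library 430 among 1622. That was 25.4% of neutrophils (95% interval 23.7 to 27.2) after sham surgery and 26.5% (24.4 to 28.7) after splenectomy, a difference of 1.10 percentage points (-1.70 to 3.92). Of all kept cells they were 9.79% and 8.59%. Members held a median of 3392 and 3671 UMIs, and the other neutrophils 3367.5 and 3878. When every neutrophil was thinned to 2000 UMIs and the rule applied again, with 235 and 107 shallower neutrophils left out, the shares were 22.7% (21.0 to 24.6) and 23.2% (21.1 to 25.4). The share of these cells among neutrophils therefore did not differ between the libraries beyond counting error, at either depth.

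At least 2 UMIs of Csf1 and Il23a were held by 1069 sham and 735 splenectomy neutrophils. The limits that then removed cells differed between the libraries. Retnlg, a gene of neutrophils recently released from marrow, took out 158 and 206 of them. The Ifit genes and Rsad2, which interferons induce, took out a further 262 and 73, and the Nt5e and Ppp1r3b limit a further 48 and 26. The members are thus a range cut from counts and not a discrete type. Within the other limits, 248 and 163 neutrophils held 1 UMI of Csf1 and Il23a and fell just outside, while 125 (20.8%) and 79 (18.4%) of the members sat at the minimum of 2 UMIs. The median member held 5 such UMIs in both libraries and the highest 36 and 49. Median UMIs of the genes that define other groups were low in members as the rule sets them: 1 and 0 for Nt5e with Ppp1r3b, 0 and 0 for Retnlg, and 0 and 0 for the Ifit genes with Rsad2.

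The promoters of the genes the results turn on were looked up in RefSeq (GRCm38.p6), in windows from 250 bases before to 50 bases after the start of transcription, for the label's genes and the 12 genes named as highest below. A window was found for 10 of 16 genes. A fixed form of the kappaB motif of NF-kB, GGGNN followed directly by TTTCC, was searched on both strands. It had a match in Csf1 alone, 154 bases before the start, against 1.63% of 32851 mouse windows. The AP-1 motif TGANTCA matched in Il1a alone (7.81% of windows) and the CCAAT box in 4 genes (37.4% of windows). The absence of a match says only that these letters are not in the window. Other forms of the kappaB motif were not searched, so windows without a match may still hold a kappaB site. The windows of Csf1, the gene most used by the rule, and of Tnf and Ccl3, which had the highest ratios among the named genes, are shown on their coding strands, with the kappaB match in capitals, where it reads as the reverse complement.
Csf1, chr3:107760420-107760719, minus strand: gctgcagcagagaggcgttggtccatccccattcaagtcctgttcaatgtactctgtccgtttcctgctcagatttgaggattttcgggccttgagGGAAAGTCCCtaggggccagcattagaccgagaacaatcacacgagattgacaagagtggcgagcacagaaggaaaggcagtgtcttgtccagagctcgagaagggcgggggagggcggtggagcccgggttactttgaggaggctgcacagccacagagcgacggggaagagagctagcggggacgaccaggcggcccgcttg
Tnf, chr17:35201958-35202257, minus strand: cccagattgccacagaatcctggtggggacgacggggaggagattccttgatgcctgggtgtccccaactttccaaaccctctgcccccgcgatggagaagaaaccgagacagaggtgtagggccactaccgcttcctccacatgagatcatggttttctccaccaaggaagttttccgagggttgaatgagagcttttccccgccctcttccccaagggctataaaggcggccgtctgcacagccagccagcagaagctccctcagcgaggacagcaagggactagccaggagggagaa
Ccl3, chr11:83649329-83649628, minus strand: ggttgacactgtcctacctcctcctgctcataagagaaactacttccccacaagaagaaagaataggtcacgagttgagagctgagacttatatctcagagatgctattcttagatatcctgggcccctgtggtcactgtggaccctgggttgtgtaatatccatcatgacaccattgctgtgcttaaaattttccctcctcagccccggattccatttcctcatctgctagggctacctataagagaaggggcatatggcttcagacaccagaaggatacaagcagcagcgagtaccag

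Csf1 (ENSMUSG00000014599, chr3:107741048-107760469, minus strand, mm10, protein coding) was read in 81.4% of sham members and 85.3% of splenectomy members, and Il23a (ENSMUSG00000025383, chr10:128296139-128298752, minus strand) in 53.1% and 48.4%. In counts per 1e6 UMIs of the summed cells (CPM), Csf1 stood at 951 and 1081 in members. It was 530 and 694 in neutrophils with at least 3 UMIs of the Ifit genes and Rsad2 and fewer than 3 of Retnlg. It was 334 and 287 in those with at least 3 UMIs of Retnlg, whatever their Ifit and Rsad2 UMIs. Neutrophils led by Nt5e and Ppp1r3b, which were below both limits, held 122 and 128. Il23a stood at 596 and 505 in members, 246 and 165 in the Ifit group, 180 and 140.0 in the Retnlg group and 34.4 and 45.1 in the Nt5e and Ppp1r3b group. Both messages were thus also read in neutrophils that the Retnlg and Ifit limits keep out.

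Outside neutrophils, both genes were lower than in every neutrophil group. In cells with at least 3 UMIs of B cell genes that were no neutrophils and had at most 3 C1q UMIs, called B cells here, Csf1 was at 0 and 1.38 CPM and Il23a at 0 and 8.28 CPM, from 0 and 1 UMIs of Csf1 and 0 and 6 of Il23a in 112 and 121 cells. A count of 0 allows up to 6.96 CPM in the sham B cells. Cells with more than 3 UMIs of C1q genes, which macrophages make, held Csf1 at 17.3 and 12.4 CPM and Il23a at 9.59 and 13.2 CPM. The 2378 and 2281 remaining cells held Csf1 at 19.6 and 20.1 CPM and Il23a at 7.79 and 18.6 CPM. Thinned to 2000 UMIs, Csf1 was found in 69.9% and 74.8% of members, 29.3% and 27.1% of other neutrophils, and in 0 of 106 and 0 of 114 B cells, which allows shares of cells with a UMI at that depth of up to 3.42% and 3.18%. For Il23a these shares were 44.0% and 38.1% of members, 14.0% and 12.1% of other neutrophils and 0 of the same B cells, whose medians before thinning were 3586.5 and 3806 UMIs.

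**Figure D1:**
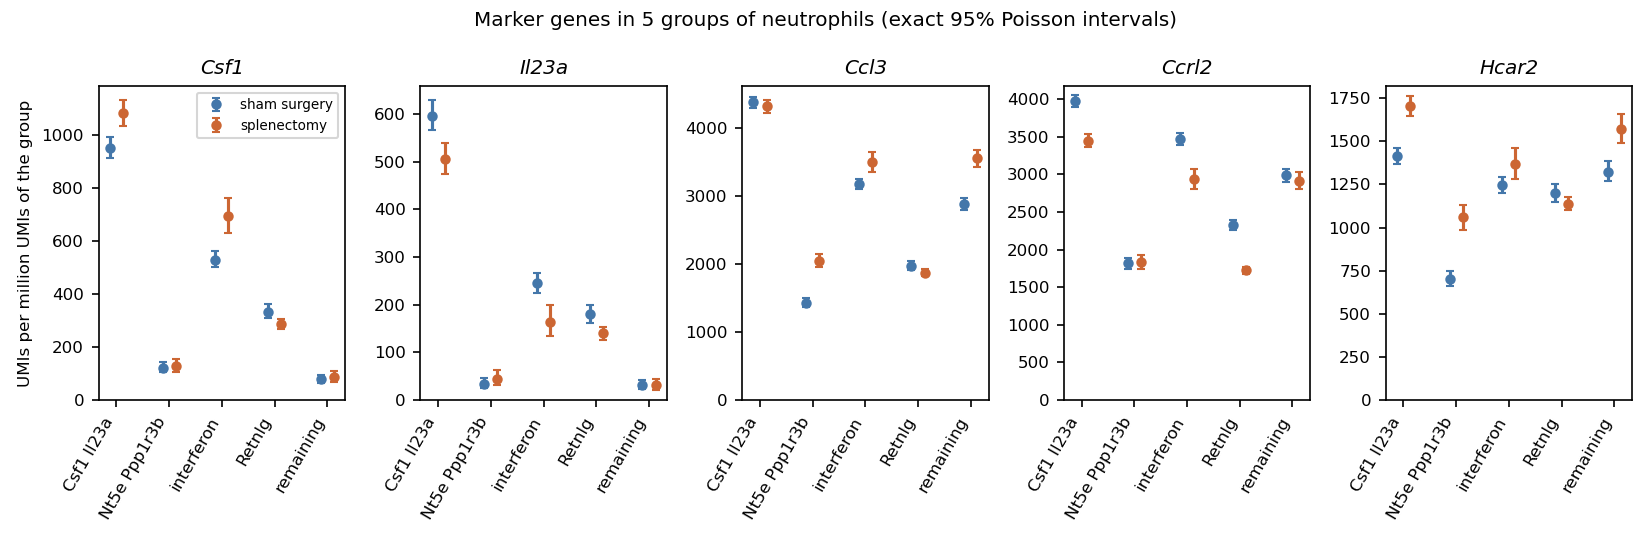
Levels of the label's 5 marker genes in 5 groups of neutrophils (CPM of each group, exact 95% Poisson intervals), sham library in blue and splenectomy library in orange. Csf1 and Il23a, which the rule uses, stand highest in the Csf1 Il23a cells, while Ccl3, Ccrl2 and Hcar2 overlap more in level with the interferon and remaining groups.

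The 3 other genes of the label were not used by the rule, although they were proposed with these data in view. Ccl3 (ENSMUSG00000000982, chr11:83647844-83649355), a chemokine for monocytes and neutrophils, was at 4374 CPM (4290.4 to 4459) in sham members and 4313 (4218 to 4409) in splenectomy members. The other neutrophils held 2454 and 2386 CPM, which gives log2 ratios of 0.83 (0.80 to 0.87) and 0.85 (0.81 to 0.89). Ccrl2 (ENSMUSG00000043953, chr9:111054486-111057519), a receptor that binds chemerin without signalling through G proteins, was at 3975 and 3446 CPM against 2739.8 and 2095 in other neutrophils, log2 ratios of 0.54 and 0.72. Hcar2 (ENSMUSG00000045502, chr5:123863570-123865499), the receptor for niacin and the ketone body beta-hydroxybutyrate, was at 1414 and 1705 CPM against 1147 and 1229, log2 ratios of 0.30 and 0.47. Of the 3, Ccl3 was past 1.5-fold in both libraries, Ccrl2 in the splenectomy library, and Hcar2 in neither.

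All 3 genes were higher in members than in each of the 4 other groups of neutrophils in both libraries. The distance was small for some groups. The neutrophils that met none of the group limits held little Csf1 (77.9 and 87.4 CPM), as the rule sets it. They held Ccl3 at 2880.4 and 3552 CPM, Ccrl2 at 2988 and 2917 CPM and Hcar2 at 1325 and 1572.5 CPM. The Nt5e and Ppp1r3b group held the least Ccl3 in the sham library, 1430.2 CPM, and the Retnlg group the least in the splenectomy library, 1874 CPM. Ccl3, Ccrl2 and Hcar2 therefore mark the members by degree. Thinned to 2000 UMIs, Ccl3 was found in 81.2% and 82.7% of members, in 69.5% and 68.2% of other neutrophils, and in 7.55% and 5.26% of B cells.

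The cells carried the genes of neutrophils beyond those of the rule. Thinned to 2000 UMIs, S100a8 was found in 99.3% and 98.5% of members, 99.4% and 99.5% of other neutrophils and 24.5% and 35.1% of B cells, whose levels were 168 and 469 CPM. Of 20 measured genes of a neutrophil list, 15 were lower in members than in other neutrophils in both libraries and 3 were higher, with medians of -0.25 and -0.39 on the log2 scale. Of all 4973 measured genes, 1267 were lower in both libraries and 1990 higher. Among them, S100a8 was at 33670 and 36684 CPM against 41140 and 57066, and Ly6g, the surface antigen used to sort mouse neutrophils, at 6.35 and 11.6 CPM against 19.0 and 39.8. Clec4e, a receptor for mycobacterial glycolipid, and Ptgs2, the inducible cyclooxygenase, were the other way, with log2 ratios of 0.36 and 0.36, and 0.25 and 0.45. Against only the other neutrophils that meet the same Retnlg and Ifit limits, the list's medians were -0.08 and -0.14. Of its 19 genes measured there, 12 were lower in both libraries and 4 higher, and none was past 1.5-fold in both. Of all 4913 genes measured there, 1355 were lower in both libraries and 1556 higher.

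Markers of other cell types were summed over the same cells. The macrophage list had a median of 3 UMIs per member in both libraries, against 2 and 3 in other neutrophils, and 1950 and 2159 CPM against 2274 and 2489. All 12 genes of that list, some of which neutrophils also make, were detected in members of both libraries. The eosinophil list stood at 79.5 and 51.2 CPM in members against 60.8 and 41.4 in other neutrophils, with 3 or more UMIs in 1.83% and 0.698% of members against 0.737% and 0.419%. Its genes Prg2 and Epx were at 0 in members and in other neutrophils of both libraries. NK cell genes gave 4 and 3 UMIs in all members, with Klrb1c, Klra8, Ncr1, Eomes and Prf1 at 0, and the basophil and mast cell list 28 and 24 UMIs. B cell lists gave 162 and 99 UMIs and T cell lists 50 and 14 UMIs in all members. Dendritic cell genes had a median of 1 UMI per member against 0, with Clec9a and Siglech at 0 in members of both libraries. Of members, 16.0% and 15.8% held 3 or more UMIs of that list, against 10.8% and 8.64% of other neutrophils. Its summed level was lower in members, at 817 and 738 CPM against 879 and 810. The same 9 barcodes were shared by the libraries and none of these was a member in both.

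Against all other neutrophils of the same library, 4973 genes were measured, meaning that 20 or more counts were expected in the smaller sum in each library if both populations had 1 rate. Genes of the rule were left out of the counts. Only 2 of them (0.0402%) were at least 2-fold higher in members in both libraries, and 35 (0.704%) were at least 2-fold lower. At 1.5-fold the counts were 41 (0.824%) and 104 (2.09%). The 2 genes were Bcl2l15, a member of the BCL-2 family, at 16.9 and 24.2 CPM against 6.23 and 7.93, and the predicted gene Gm43936, at 35.5 and 32.5 CPM against 16.1 and 8.12. Members thus differed from the other neutrophils mainly by moderate ratios.

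Among genes with at least 100 UMIs that were found in at least 10% of members, Tnf had the highest ratio. This gene (ENSMUSG00000024401, chr17:35199381-35202007) encodes the cytokine TNF. It was at 1789 CPM in sham members against 954 in the other neutrophils and at 1759 against 838 after splenectomy, log2 ratios of 0.91 (0.85 to 0.96) and 1.07 (1.004 to 1.14). Ccl3 came next, followed by Dusp2, a nuclear phosphatase that switches off MAP kinases, at 687 against 392 and 601 against 288 CPM (0.81 and 1.06). Icam1 (ENSMUSG00000037405, chr9:21015985-21028817), an adhesion molecule bound by leukocyte integrins, was at 636 against 368 and 594 against 333 CPM (0.79 and 0.84). Clec4n, the receptor Dectin-2 for fungal mannans, had ratios of 0.77 and 0.85, Il1a, the alarm cytokine IL-1 alpha, 0.66 and 0.70, and Ccl4, a chemokine encoded beside Ccl3, 0.65 and 0.67. The remaining named genes were Arf2 (0.77 and 0.70), a small GTPase of the Golgi, Atp6v1c1 (0.68 and 0.78), a subunit of the proton pump, M6pr (0.67 and 0.67), which carries enzymes to lysosomes, Treml4 (0.65 and 0.76), and Il1bos (0.67 and 0.74). Il1bos lies antisense to Il1b, and whether counting used the strand is not stated, so reads of the pair may not be separable. Il1b itself stood at 23642 and 21743 CPM in members against 19583 and 16211, log2 ratios of 0.27 and 0.42.

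Of the 35 genes at least 2-fold lower, 15 were on the list of interferon-stimulated genes, a response that the rule itself limits. Among the named genes, Oasl1 (-1.95 and -1.71), Ddx60 (-1.82 and -1.55), Isg15 (-1.34 and -1.38), Isg20 (-1.48 and -1.22), Zbp1 (-1.22 and -1.20), Oas3 (-1.14 and -1.59), Slfn5 (-1.24 and -1.14) and Xaf1 (-1.11 and -1.16) belong to it. Of 39 measured interferon-stimulated genes outside the rule, 27 were at least 1.5-fold lower in both libraries and none higher, with medians of -1.07 and -0.76 against 0.02 and 0.08 for all measured genes. Mmp8 (-1.13 and -1.41), a collagenase of granules, and Wfdc17 (-1.18 and -1.62) were also lower. Of 18 measured granule genes, Ngp, Mmp8, Adam8 and Wfdc21 were 1.5-fold lower in both libraries and Ltf was higher. Pf4 (-1.64 and -1.40), a platelet chemokine also made by macrophages, and Ccl7 (-1.16 and -1.97), a monocyte chemokine, complete the list. In the other neutrophils, 70.4% and 58.5% of the Pf4 UMIs lay in 5 cells. The Pf4 ratio of the sham library turned to 0.19 among neutrophils with no C1q UMI, and the Ccl7 ratio of the splenectomy library to 0.087 without the highest doublet scores.

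Because the Retnlg and Ifit limits fix much of this contrast, members were also set against the 869 and 473 other neutrophils that meet the same limits and differ by their Csf1, Il23a, Nt5e and Ppp1r3b UMIs. Of 4913 measured genes, 3 (0.0611%) were 2-fold higher in both libraries and 3 (0.0611%) lower, and at 1.5-fold 37 (0.753%) and 29 (0.59%). In this comparison the interferon-stimulated genes had medians of -0.05 and 0.09, with 31 measured, and the granule genes -0.12 and -0.12. Tnf (1.04 and 0.99), Icam1 (0.91 and 0.62), Dusp2 (0.77 and 0.86) and Ccl3 (0.99 and 0.60) stayed past 1.5-fold in both libraries. Il1a (0.71 and 0.46), Ccl4 (1.09 and 0.43), Clec4n (0.64 and 0.49) and Ccrl2 (0.70 and 0.52) passed it in the sham library only.

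Other genes stood higher in members than in these nearer neighbours. Cxcl10, an interferon-induced chemokine for activated T cells, was lower than in all other neutrophils (-1.47 and -0.32) but higher here, at 127 against 57.9 CPM after sham surgery and 163 against 61.1 after splenectomy, log2 ratios of 1.13 (0.85 to 1.42) and 1.41 (1.09 to 1.75). It was read in 12.5% and 14.0% of members. Cxcl1, a chemokine for neutrophils, was at 170.5 against 86.7 CPM and 216 against 115 CPM (0.98 and 0.91), and 33.7% and 53.1% of its UMIs in members lay in 5 cells. Cd274, the checkpoint ligand PD-L1, was at 102 against 66.3 and 123 against 81.1 CPM (0.63 and 0.60). Ifi207, Cnpy3, Npc1, Denr and Atp6v1c1 were the other named genes, with ratios between 0.61 and 0.89. Among genes lower than in these neighbours were the monocyte chemokines Ccl2 (-0.96 and -1.18) and Ccl7 (-0.82 and -2.34), the protease Adam19 (-1.07 and -0.86) and Slc2a3, a glucose transporter (-0.71 and -0.61). The 2-fold lower genes were Ccl5, Gzma and Csta2, the first a chemokine and the next a granzyme of cytotoxic lymphocytes. In all other neutrophils, 80.8% and 96.7% of the Ccl5 UMIs lay in 5 cells. The NK cell list, which holds Gzma, gave 95 and 83 UMIs there, with 3 or more UMIs in only 3 and 1 of those cells.

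Gene lists placed these single genes in context. Of 28 measured genes of the NF-kB pathway and its feedback, 26 were higher in members than in all other neutrophils in both libraries and 25 were higher than in the neutrophils within the limits. Among all measured genes, 1990 of 4973 and 1556 of 4913 were higher in both libraries in the same comparisons. The list medians were 0.30 and 0.25 against all others, and 0.28 and 0.24 within the limits, so these ratios were small and Icam1 alone was past 1.5-fold in both libraries. The inhibitor Nfkbia was at 8378 and 8168 CPM against 6381 and 5628 (0.39 and 0.54), Tnfaip3, which ends NF-kB signalling, had ratios of 0.40 and 0.56, Gadd45b 0.52 and 0.69, and Nfkbid 0.42 and 0.52. Plaur, the urokinase receptor, was the gene lower in both libraries (-0.10 and -0.07).

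Cytokine and growth factor genes had medians of 0.32 and 0.27 against all other neutrophils and 0.26 and 0.25 within the limits. Of 18 measured, Tnf and Il1a were 1.5-fold higher in both libraries and none was lower in both by that much. Il1rn, the natural blocker of the IL-1 receptor, had ratios of 0.48 and 0.52 and Osm, oncostatin M, 0.16 and 0.26. AP-1 and immediate early genes had medians of 0.16 and 0.30 against all others and 0.09 and 0.10 within the limits, with Dusp2 higher and Fosl1 lower past 1.5-fold in both libraries. The 15 measured chemokines were divided: Ccl3 and Ccl4 were higher and Ccl2, Ccl5, Ccl7, Ccl12, Ccl17 and Pf4 lower past 1.5-fold in both libraries. Cxcl2, a chemokine for neutrophils, was at 53498 and 52008 CPM against 43017 and 36333 (0.31 and 0.52).

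Of 29 measured hypoxia and glycolysis genes, 20 were lower in members than in all other neutrophils in both libraries and 5 were higher, with medians of -0.18 and -0.09. Of all measured genes, 25.5% were lower in both libraries in that comparison and 27.6% within the limits. Within the limits 18 were lower and 3 higher (medians -0.22 and -0.17), and Slc2a3 was the gene past 1.5-fold in both libraries. In the BCL-2 and cell death list none of 24 measured genes was past 1.5-fold in both libraries. The related genes Bcl2a1a, Bcl2a1b and Bcl2a1d, which encode survival proteins and can share reads, had ratios of 0.45 and 0.69, 0.46 and 0.54, and 0.56 and 0.65. Receptors for chemoattractants, metabolites and nucleotides had medians of 0.04 and 0.08, with C3ar1 lower. The lists for prostaglandin and leukotriene enzymes, oxidases and antioxidants, adhesion, checkpoint molecules, lysosomes and lipids, and heat shock had medians between -0.18 and 0.12, and each held at most 1 gene past 1.5-fold in either direction in both libraries, apart from adhesion with Icam1 higher and Selp lower.

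**Figure D2:**
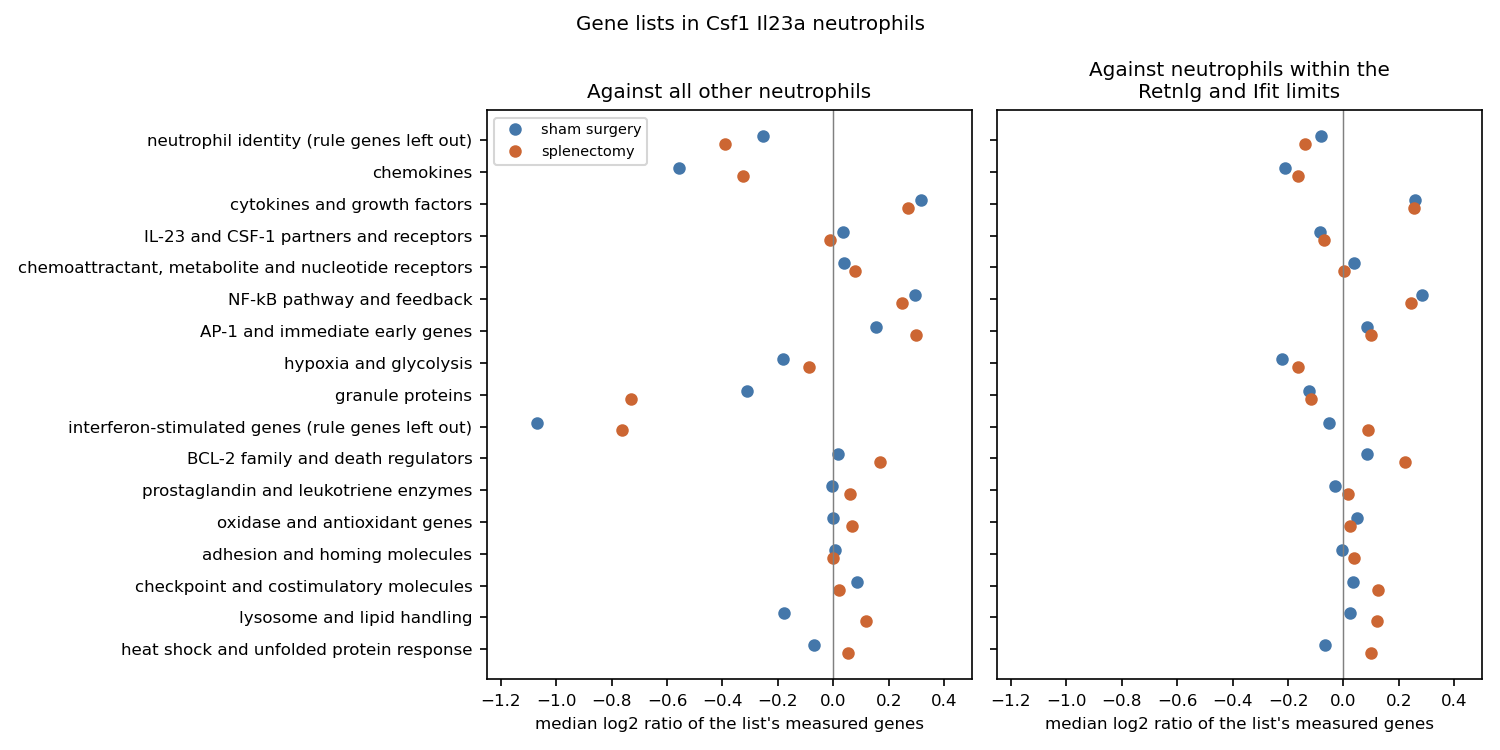
Median log2 ratio (members over comparison cells) of the measured genes of 17 lists, against all other neutrophils (left) and against neutrophils that meet the same Retnlg and Ifit limits (right), sham library in blue and splenectomy library in orange. The interferon and granule lists stand at -1.07 and -0.76, and -0.31 and -0.73, on the left and between -0.12 and 0.09 on the right, while the NF-kB and cytokine lists stay between 0.24 and 0.32 in both panels.

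Partners and receptors of IL-23 and CSF-1 were measured for 5 of 13 genes, with none past 1.5-fold. Il12b, whose product completes IL-23, had 0 UMIs in the 601 sham members and 0 in the 430 splenectomy members, which allows up to 1.56 and 2.03 CPM. It was also rare elsewhere, with 1 and 2 UMIs in the 1285 and 981 cells with more than 3 C1q UMIs. Il23r and Il12rb1, the receptor chains, had 0 UMIs in members of both libraries. Csf1r was at 123 and 111 CPM in members and 109 and 112 CPM in the other neutrophils, against 294 and 305 CPM in the C1q cells. Thinned to 2000 UMIs, Csf1r was found in 45.1% and 46.5% of the C1q cells, 19.1% and 15.6% of members, 17.6% and 18.2% of other neutrophils and 3.77% and 4.39% of B cells. Before thinning the shares were 89.96% and 92.3% of C1q cells and 30.1% and 30.2% of members, whose median depths were 13864 and 15049, and 3392 and 3671 UMIs.

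Within the Retnlg and Ifit limits, several genes differed between cells with no UMI of Csf1 and Il23a and members with 8 or more. Ccl3 was at 1954 and 5649 CPM in these ends of the range in the sham library and at 2854 and 4953 CPM in the splenectomy library. Tnf was at 783 and 2401 CPM and at 838 and 2358 CPM, and Icam1 at 319 and 869 CPM and at 369 and 748 CPM. Il1a was at 800 and 1862 CPM and at 846 and 1605 CPM. S100a8 was lower in the members with 8 or more, at 42267 and 30959 CPM and at 49839 and 32055 CPM. Ccl3 in the splenectomy library rose at each step between the ends, at 3106, 3313, 3776 and 4592 CPM. In the sham library Ccl3 fell only from 3351 CPM at 2 UMIs to 3332 CPM at 3 to 4. Tnf fell only from 1546 to 1344 CPM in the sham library and from 1564 to 1441 CPM in the splenectomy library. S100a8 did not fall at every step in either library. Icam1 and Il1a in the sham library fell only between 2 UMIs and 3 to 4 UMIs, from 526 to 501 CPM and from 1366 to 1133 CPM. Both genes had no steady order in the splenectomy library. Icam1 in the splenectomy library was at 442, 632, 514 and 432 CPM at 1, 2, 3 to 4 and 5 to 7 UMIs, and Il1a at 1188, 1395, 1205 and 1039 CPM. Cxcl3 was lower at 8 or more UMIs than at 0, at 1601 against 1946 CPM and 1727 against 2460 CPM, and Plaur was too, at 1116 against 1272 CPM and 1031 against 1185 CPM. Hcar2 had its highest level at the minimum of 2 UMIs, 1589 and 1955 CPM, and 1454 and 1612 CPM in the members with 8 or more. Median UMIs per cell moved with these bins, from 2987 to 3744 and from 3412 to 3945, and their part in the levels was not tested. The bins of 2 or more UMIs held members only, while those of 0 and 1 also held cells led by Nt5e and Ppp1r3b. What this change of cells adds to the levels was not tested either.

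**Figure D3:**
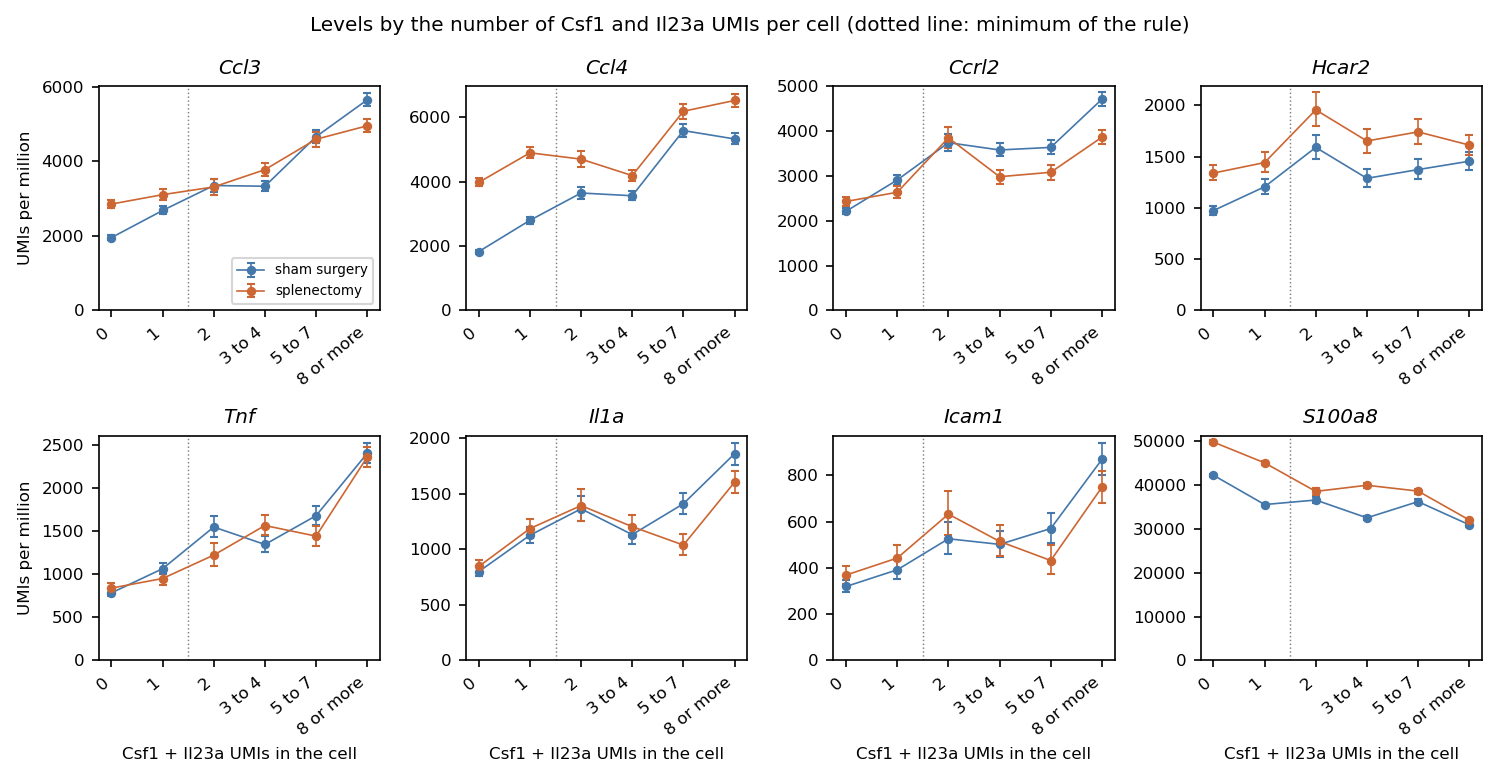
Levels of 8 genes (CPM, exact 95% Poisson intervals) in neutrophils within the Retnlg and Ifit limits, by the number of Csf1 and Il23a UMIs in the cell, with the rule's minimum as a dotted line. Points to the right of the line are members only, and points to the left include cells led by Nt5e and Ppp1r3b. Ccl3, Tnf and Icam1 are highest in cells with 8 or more such UMIs in both libraries, S100a8 is lowest there, and Hcar2 is highest at 2.

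Depth was also compared directly. Cells were divided into 4 ranges of total UMIs, each holding about as many members of a library, and members were set against other neutrophils of the same range. Ccl3 had log2 ratios from 0.64 to 0.999 over the 4 ranges in the sham library and from 0.53 to 1.12 in the splenectomy library. For Ccl4 the ranges were 0.56 to 0.85 and 0.34 to 0.84, for Ccrl2 0.33 to 0.76 and 0.31 to 0.83, and for Hcar2 0.12 to 0.59 and 0.24 to 0.54. The direction was thus the same in all 4 ranges of both libraries for these 4 genes.

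Members differed among themselves by which of the 2 messages they held. In the sham library 282 members (46.9%) had UMIs of Csf1 only, 112 (18.6%) of Il23a only and 207 (34.4%) of both. In the splenectomy library these were 222 (51.6%), 63 (14.7%) and 145 (33.7%). A message can be missed in a shallow cell, and Csf1-only members held fewer UMIs, with medians of 3166 and 3404.5 against 3679.5 and 3831 in Il23a-only members. Of 1585 genes measured between these subsets, 57 (3.6%) were at least 1.5-fold higher in Csf1-only members in both libraries and 15 (0.946%) lower.

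The 5 named genes higher in Il23a-only members were Il1a, Sod2, Gpr84, Lcn2 and Zfp131. Il1a was at 1821 CPM in Il23a-only and 856 in Csf1-only members of the sham library, and at 2071 and 767 CPM after splenectomy, log2 ratios of -1.09 (-1.23 to -0.95) and -1.43 (-1.60 to -1.27) for Csf1-only over Il23a-only. Members with both messages held Il1a at 1954 and 1807 CPM, near the Il23a-only level, while neutrophils within the limits that had neither held 800 and 846 CPM, near the Csf1-only level. Sod2, the mitochondrial superoxide dismutase, showed the same layout, at 677 and 835 CPM in Il23a-only, 717 and 638 in members with both, 321 and 408 in Csf1-only, and 333 and 467 in neutrophils with neither. Icam1 was at 749 and 654 CPM in Il23a-only, 826 and 823 with both, 409 and 408 in Csf1-only and 319 and 369 with neither. Tnf stood in between in Csf1-only members, at 1299 and 1230.2 CPM, against 1905 and 1929 in Il23a-only members and 783 and 838 with neither. Ccl3 did not follow this layout: Il23a-only members held 3959 and 2793 CPM and Csf1-only members 3879.8 and 4344, with 1954 and 2854 CPM in neutrophils with neither. Clec4n was lower in Il23a-only members, at 525 and 733 CPM against 808 and 906. Gpr84, a receptor for medium-chain fatty acids, Lcn2, an iron-withholding protein of granules, and Zfp131 had ratios of -0.82 and -1.77, -1.24 and -0.77, and -0.75 and -0.93. Lcn2 was at 918 and 1485 CPM in Il23a-only members, 388 and 870 in Csf1-only members, and 704 and 1605 in neutrophils with neither. The Il23a-only members were thus above the neutrophils with neither in the sham library and below them in the splenectomy library.

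Csf1-only members held more Cxcr4, the receptor that retains neutrophils in marrow and rises as they age. Its level was 596 and 501 CPM in Csf1-only, 443 and 353 with both, 301 and 211 in Il23a-only members, and 438 and 343 with neither message. The log2 ratios of Csf1-only over Il23a-only were 0.99 (0.72 to 1.26) and 1.25 (0.85 to 1.68). The other named genes were Eea1, an early endosome tether (1.39 and 1.62), Fnip1, a partner of folliculin (1.26 and 1.25), the chromatin protein Atf7ip (1.02 and 1.12) and the small GTPase Arl4c (1.16 and 1.005). Ccl4 was at 4931 and 6054 CPM in Csf1-only, 4809 and 5663 with both and 3542 and 3688 in Il23a-only members. Neutrophils with neither held Ccl4 at 1831 and 3982 CPM, so after splenectomy the Il23a-only members were below them. The subsets share the members' other limits, so these differences lie within the group that the rule defines.

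**Figure D4:**
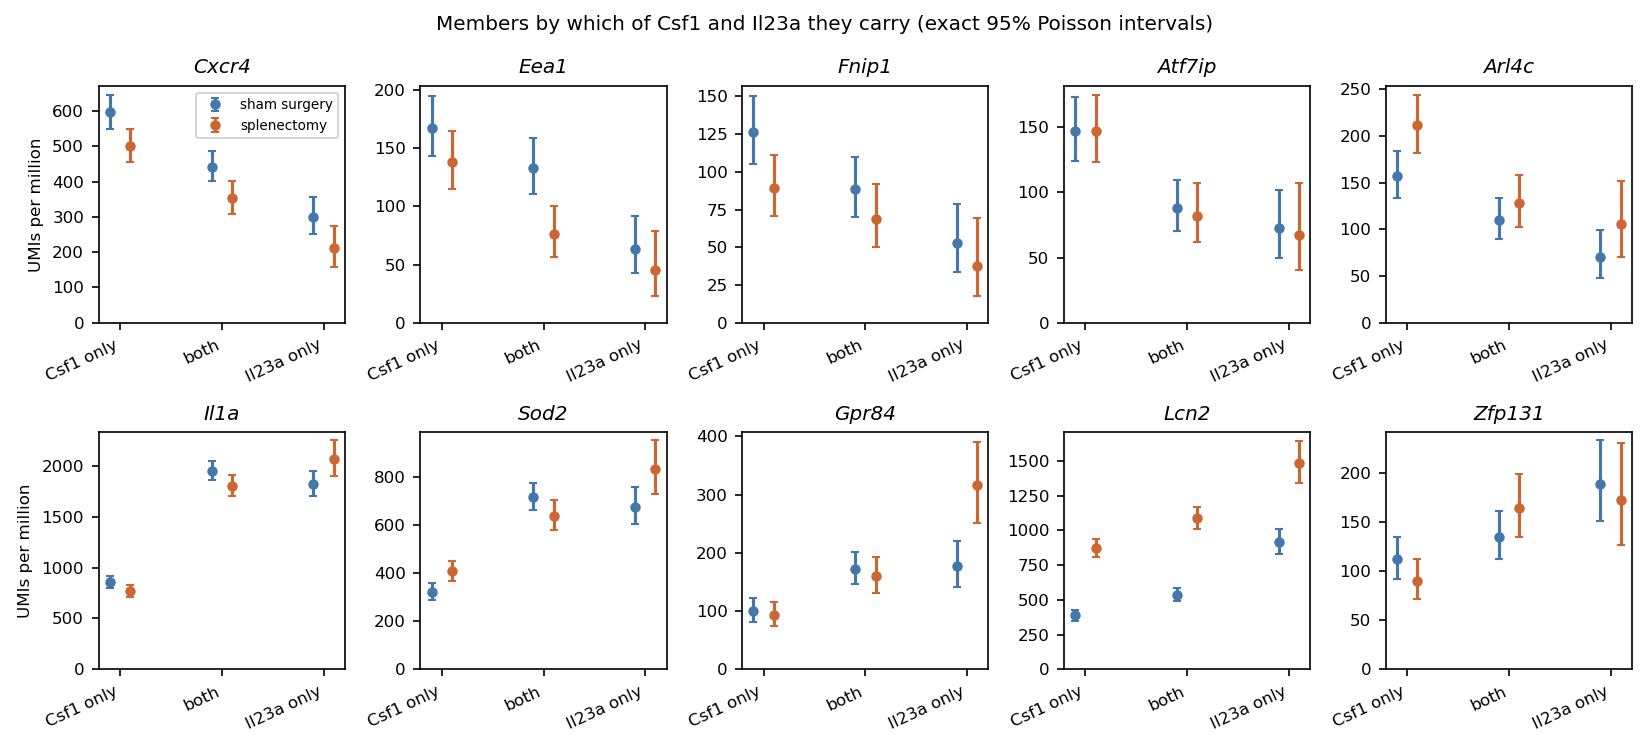
Levels of the 10 named genes (CPM, exact 95% Poisson intervals) in members with UMIs of Csf1 only, of both genes, and of Il23a only, sham library in blue and splenectomy library in orange. Cxcr4 stands at 596 and 501 in Csf1-only and 301 and 211 in Il23a-only members, and Il1a stands at 856 and 767 against 1821 and 2071.

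Between the libraries, 5162 genes were measured in members. Of these, 35 (0.678%) were at least 2-fold higher in the splenectomy library and 65 (1.26%) at least 2-fold lower, and at 1.5-fold 242 (4.69%) and 321 (6.22%). The median gene differed by -0.03. In the other neutrophils, 12 of the 35 and 19 of the 65 were also 2-fold in the same direction. How many of all measured genes were 2-fold apart in the other neutrophils was not counted, so no background share stands beside these overlaps. The rule's own genes differed little, Csf1 by 0.19 (0.10 to 0.27) and Il23a by -0.24 (-0.36 to -0.12). The genes highest in members against other neutrophils were also near each other in the 2 libraries, Tnf with a ratio of -0.02 (-0.09 to 0.04), Ccl3 -0.02, Icam1 -0.10, Il1a -0.14 and Ccl4 0.27. Both this comparison and the contrast with other neutrophils use the same sham members.

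Splenectomy members held more of several receptors and granule genes. Ffar2, which senses acetate and other short-chain fatty acids, was at 92.4 CPM after splenectomy and 20.3 after sham surgery, from 168 and 48 UMIs, a log2 ratio of 2.19 (1.72 to 2.68), and in other neutrophils at 63.1 and 17.1 CPM (1.88). Cd177, a surface protein of neutrophil granules, was at 125 and 36.0 CPM (1.80, 1.43 to 2.17), and at 209 and 36.1 CPM in other neutrophils (2.54). Fcgr2b, the inhibitory receptor for IgG, was at 163 and 69.8 CPM (1.22), and at 138 and 66.6 CPM in other neutrophils (1.05). Schip1 (1.68), Chil3 (1.13), a chitinase-like protein, and Wfdc17 (1.16) were also higher, with 1.22, 0.88 and 1.60 in other neutrophils. Of 17 measured granule genes, 9 were at least 1.5-fold higher in splenectomy members and none lower. Of all 5162 measured genes, 4.69% were that much higher and 6.22% lower. Among the 9 granule genes were Lcn2 (0.92), Mmp8 (0.83) and Wfdc21 (0.81). The median of the list was 0.64, both in members and in other neutrophils. Fpr1, the receptor for formyl peptides (0.64), and Ltb4r1, the receptor for leukotriene B4 (0.71), were higher as well.

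A few of the highest ratios rested on few cells. Of the Inhba UMIs in splenectomy members (1.503, an activin subunit), 63.8% lay in 5 cells, and 1 cell held 176 of 414. For Ccl9 (1.21) the share was 58.1%, with 221 of 523 UMIs in 1 cell, for Fn1 (1.14), fibronectin, 60.8%, and for Saa3 (1.41), an acute-phase protein, 56.8%. In other neutrophils these 4 genes had ratios of 0.52, 0.41, 0.66 and 1.47. Among neutrophils with no C1q UMI, the ratio in members was 0.60 for Inhba and 0.54 for Fn1, and with the rule on thinned cells that of Ccl9 was 0.47. Fn1 is also among the monocyte markers, whose summed level was 1175 CPM in sham members and 1498 in splenectomy members, all 10 of them detected in both, and its part in the Fn1 ratio was not tested.

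Interferon-stimulated genes were lower in splenectomy members although the rule limits this response in both libraries. Ifi27l2a was at 976 CPM after splenectomy and 2284 after sham surgery (-1.23, -1.30 to -1.15), and was read in 57.2% and 79.0% of members. Irf7, a factor that amplifies interferon production, was at 85.3 and 192 CPM (-1.17), Xaf1 at 20.4 and 49.5 CPM (-1.28), Slfn5 at 88.6 and 180 CPM (-1.02) and Oas3 at 24.8 and 51.2 CPM (-1.05). Psmb9, a subunit of the immunoproteasome (-1.08), Rnf213 (-1.19), Slfn8 (-1.08), the class I gene H2-T22 (-1.22) and AW011738 (-1.51) were the other named genes. Of 34 measured genes of the list, 22 were at least 1.5-fold lower and none higher, with a median of -0.63. Of all 5162 genes measured in members, 6.22% were that much lower and 4.69% higher. In other neutrophils 30 of the list were at least 1.5-fold lower and the median was -0.82. The share of all genes that were 1.5-fold lower in other neutrophils was not counted. Among the rule genes left in members, Ifit3 was at 16.0 and 43.6 CPM and Retnlg at 82.0 and 55.0 CPM, so that the limits held these genes low without making the libraries equal.

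**Figure D5:**
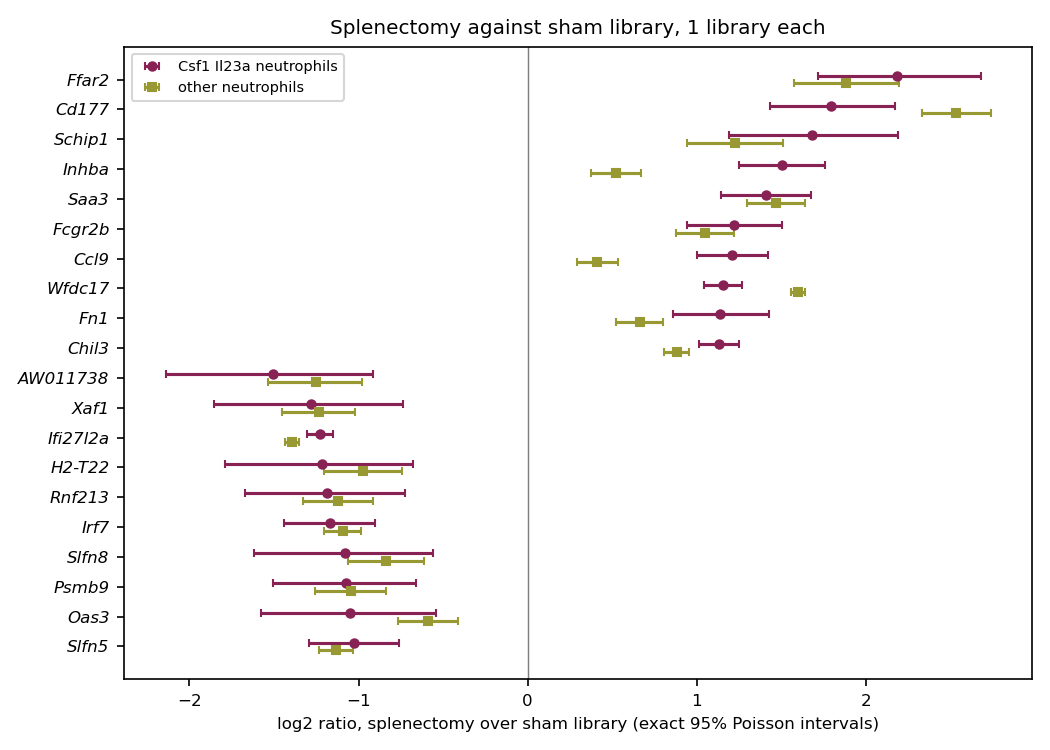
Log2 ratios of the splenectomy over the sham library for the 20 named genes, in Csf1 Il23a neutrophils (circles) and in the other neutrophils (squares), with exact 95% Poisson intervals that cover counting error only. All 20 genes lie on the same side of 0 in both populations, with the widest separation at Inhba (1.503 and 0.52).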

How the data were processed

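The 2 deposited libraries hold UMI counts per gene and cell barcode. The authors made these counts with Cell Ranger 5.0.0, per the file headers, with STAR and the mm10 build, per the submitters' processing notes; the annotation and use of strand are not given in the sources used here. The libraries held 53512625 and 48024013 UMIs in 6210 and 5087 barcodes, of which 70 and 82 failed the limits on genes or mitochondrial UMIs. Python 3.11.15 with numpy 2.4.6, scipy 1.17.1, pandas 2.3.3 and scanpy 1.11.5 was used. Counts were summed over cells and scaled to CPM. Ratios carry exact 95% intervals, and a count of 0 was set to 3 counts. A gene was measured with at least 20 expected counts. Named genes were, by the ratio nearer 0 of the libraries, the 12 highest and 12 lowest against other neutrophils, 10 each way between libraries and 5 each way between subsets, among measured genes with at least 100 UMIs in the higher population, found in at least 10% of its cells and at least 1.5-fold apart, leaving out rule genes, mitochondrial, ribosomal and haemoglobin genes, Gm and Rik models and receptor segments. The first of these rules was later also applied against neutrophils within the limits, where 4 lower genes met it. The ratio script was tested on simulated counts. Doublets stayed in, and leaving out the 302 and 200 cells with the highest Scrublet scores was an alternative. Aldoa and Ddit3 name several features and BC100530 none, so these drop out of the lists. Positions are from GENCODE (mm10), promoters from RefSeq (GRCm38.p6). Members and lists were chosen with earlier results of these data known. Other filters, depths, doublet removal and scalings were tried, 14 in all.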

Additional observations from a re-analysis of the deposited data

Results flagged for a closer look

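For 6 of 4973 measured genes the members stood at least 1.5-fold above the other neutrophils in one library and at least 1.5-fold below them in the other, and this difference between the libraries was not tested. Areg, the growth factor amphiregulin, had log2 ratios of 2.54 after sham surgery and -3.31 after splenectomy, and 1 sham member held 233 of the 257 Areg UMIs of its library's members. Ccl24, a chemokine for eosinophils, had ratios of -2.01 and 1.96, with 135 of 163 UMIs of splenectomy members in 1 cell. Psmd1, a proteasome subunit, had ratios of -0.75 and 0.85, from 24 and 39 UMIs in members. Cyp51, an enzyme of sterol synthesis, had 0.75 and -0.67, from 49 and 14 UMIs. Wdr89 had -0.62 and 0.83, from 23 and 41 UMIs, and Txndc15 had -0.65 and 0.62, from 24 and 37 UMIs.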

How the results depend on the processing

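No paired analysis was possible because each group is 1 library. The difference in the members' share of neutrophils lay between 0.45 and 1.88 percentage points over 9 alternatives. The 2 genes at least 2-fold higher than in other neutrophils became 1 without C1q UMIs, with at least 3 UMIs of Csf1 and Il23a and in cells of 2000 to 8000 UMIs, and 0 with the rule on thinned cells. The 35 lower genes became 55 with the rule on thinned cells and 3 within the Retnlg and Ifit limits, which compares other cells. With 50 expected counts, which measures fewer genes, these counts were 0 and 16, and with 5 they were 13 and 58. Between libraries, the 35 higher genes became 59 when every cell weighed the same, 16 with 50 expected counts and 243 with 5, and the 65 lower genes 24 and 368. Pf4 in the sham library turned to 0.026 at a neutrophil score of 0.6%, 0.19 without C1q UMIs and 0.19 at 2000 to 8000 UMIs, and Ccl7 in the splenectomy library to 0.087 without the highest doublet scores; the cause was not tested. Within the limits, Zbp1 turned to 0.042 and 0.30, and in the splenectomy library Ddx60 to 0.68, Slfn5 to 0.16, Mmp8 to 0.061 and Xaf1 to 0.11. Of 624 values of single genes against other neutrophils, 491 stayed within their counting interval, 123 moved and 10 reversed, the sign changes listed above included. Of 220 between libraries, 190 stayed, 30 moved and 0 reversed.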
